A study of Mus musculus with 19 samples.

Results

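Complement genes were followed in the infrarenal aorta of C57BL/6J mice, an inbred laboratory strain, after infusion of porcine pancreatic elastase (PPE) or of saline (sham). The genes were chosen by symbol, with the brightest probe set taken for each, and cover the steps of the cascade that can be read in tissue RNA: the C1q chain genes C1qa, C1qb and C1qc, the protease gene C2, the central component C3, factor B (Cfb), the anaphylatoxin receptor genes C3ar1 and C5ar1, and the terminal component C7. Of these 9 genes 8 had a probe set with exactly 1 gene symbol, out of 30142 genes measured in all, and C3 was not analysed here. The 4 groups were 7 male PPE, 5 male sham, 4 female PPE and 3 female sham mice, with 1 aorta on each of 19 Affymetrix Clariom D arrays and no pooling. Every mouse was operated on at 10 weeks of age, with the aorta ligated or clamped, opened and infused for 5 min at 120 mmHg, and the segment was collected on day 7. PPE mice received elastase at 2.5 U/mL in the saline and sham mice saline alone. Sham aortae therefore share the surgical injury, and the groups differ by the enzyme, which digests elastin and leads to dilation of the vessel.

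Complement is a protease cascade of innate immunity. The classical arm starts when C1q binds antibody or altered surfaces, and it leads through C4 and C2 to the cleavage of C3. The alternative arm amplifies that cleavage with factor B, and both arms lead to release of the anaphylatoxins and to assembly of the membrane attack complex, to which C7 belongs. Plasma complement comes largely from the liver, whereas macrophages make C1q in tissues, so that RNA in the aortic wall shows local production only.

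Values are deposited log2 intensities, so 1 unit is a doubling of signal, and differences are PPE minus sham. Calls rest on limma, with p-values adjusted by Benjamini and Hochberg across all 30142 genes and a threshold of 0.05. Array medians over all probe sets lay at 5.61 to 5.85 in male PPE, 5.67 to 5.83 in male sham, 6.18 to 6.29 in female PPE and 6.17 to 6.31 in female sham arrays, so PPE was compared with sham within each sex and levels were not compared between the sexes. All 6 smooth muscle markers, the genes that define the vessel wall, were measured, and their mean was 11.75 to 12.94 in male PPE and 13.62 to 14.74 in male sham arrays, and 12.72 to 13.41 in female PPE and 14 to 14.43 in female sham arrays. Male sham 4 stood apart: its adipocyte markers averaged 12.10, whereas the remaining male sham arrays lay at 7.50 to 8.43. It also had the lowest macrophage marker mean (11.37). The arrays hold RNA of the whole wall, in which more cells of a type and more RNA per cell cannot be told apart.

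The promoters of 5 of the 8 measured genes were in the RefSeq table used here (GRCm38.p6, from 250 bases before to 50 bases after the gene start). Those of C1qb and C1qc are shown because these neighbouring genes moved together, and that of C7 because it was the gene that fell. All 3 genes lie on the minus strand. C1qb is at chr4:136886151-136886450, C1qc at chr4:136892865-136893164 and C7 at chr15:5063724-5064023. Capitals mark matches to the motifs searched.
C1qb: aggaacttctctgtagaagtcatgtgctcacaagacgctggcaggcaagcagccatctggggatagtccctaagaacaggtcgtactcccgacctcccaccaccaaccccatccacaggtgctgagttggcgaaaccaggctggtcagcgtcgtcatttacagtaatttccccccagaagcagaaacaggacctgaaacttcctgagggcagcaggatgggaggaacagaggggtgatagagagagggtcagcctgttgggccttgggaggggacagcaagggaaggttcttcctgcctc
C1qc: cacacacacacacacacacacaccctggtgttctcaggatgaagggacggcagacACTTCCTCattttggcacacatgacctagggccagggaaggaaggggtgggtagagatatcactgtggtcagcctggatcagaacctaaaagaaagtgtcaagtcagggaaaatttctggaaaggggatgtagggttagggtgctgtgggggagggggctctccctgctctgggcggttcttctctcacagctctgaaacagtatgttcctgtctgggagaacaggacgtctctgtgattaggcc
C7: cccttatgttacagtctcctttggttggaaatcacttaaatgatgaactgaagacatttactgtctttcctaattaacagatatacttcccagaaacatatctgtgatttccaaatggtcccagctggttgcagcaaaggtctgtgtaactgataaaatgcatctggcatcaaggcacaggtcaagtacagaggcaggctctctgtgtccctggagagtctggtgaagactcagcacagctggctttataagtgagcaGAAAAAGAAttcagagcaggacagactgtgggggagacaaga

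The motifs were searched on both strands. They were GAAANNGAA (the core of the interferon-stimulated response element), GGANNTTCC (a kappa B core), GAGGAAGT (PU.1, a factor of myeloid cells) and TTGCNNAA (C/EBP). The window of C1qc held 1 PU.1 match, as did 3.20% of the 32851 promoters in the table. The window of C7 held 1 match to the response element core just after the start, found in 8.56% of promoters. The C5ar1 window held 1 match to that core, and the windows of C1qb and C3ar1 held none of the 4 motifs. The kappa B core was in 4.26% and the C/EBP motif in 10.8% of all promoters. These matches describe the letters only.

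In males, 6 of the 8 measured genes rose after PPE and 1 fell, leaving C2 without a call. Cfb rose by the largest factor (4.92-fold), followed by C3ar1 (3.65-fold), the 3 C1q chains (2.67-fold to 2.81-fold) and C5ar1 (2.60-fold), while C7 was 3.75-fold lower. Of all genes 19.7% were called in males, 9.67% as higher and 9.98% as lower. These shares include dim genes, whereas the 8 genes lay above 76.5% to 98.4% of genes in mean value. With the genes below the median of gene means left out, 5294 were still called in males, against 5923. The called share is thus higher among brighter genes. The median log2 difference was 1.44 over the 8 genes and 0.01 over all genes. In 4 of the 8 genes every male PPE array lay above every male sham array, which held for 4.69% of all genes.

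In females the same 7 genes had the same sign as in males, and C2 again was positive, but only Cfb was called (2.64-fold). Of all genes 4.22% were called in females and 2.77% were called as higher. With the genes below the median of gene means left out, 1450 were called, against 1273, so this share too is higher among brighter genes. The median log2 difference was 0.61 over the 8 genes and −0.02 over all genes. Every female PPE array lay above every female sham array for 5 of the 8 genes, against 11.0% of all genes, and below for C7, against 8.86% of all genes.

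**Figure D1:**
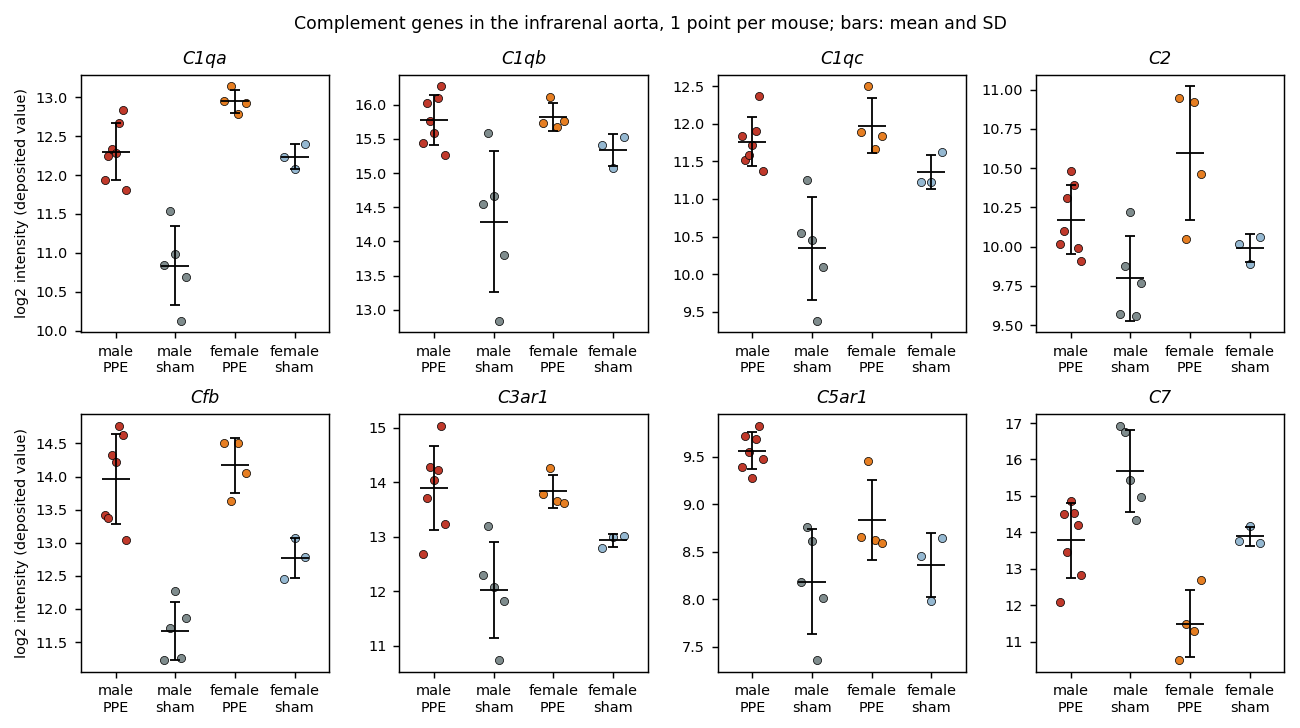
Deposited log2 intensity (y axis) of the 8 measured complement genes in each mouse (1 point), by group (x axis), with the group mean and SD as bars. C1qa, C1qc, Cfb and C5ar1 of the 7 male PPE mice lie above those of all 5 male sham mice, and C7 of the 4 female PPE mice lies below that of the 3 female sham mice.

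The C1q chains, which assemble into the recognition molecule of the classical arm, are encoded side by side within 18.7 kb on chromosome 4 (C1qa at chr4:136895916-136898844, GRCm38.p6). C1qa ranged from 11.81 to 12.83 with a median of 12.28 in the 7 male PPE arrays, against 10.84, 11.54, 10.98, 10.13 and 10.69 in male sham 1 to 5. All male PPE arrays were above all male sham arrays. The difference was 1.47 ± 0.20 (SE; 2.76-fold, adjusted p = 3.24e-05). In females C1qa was 12.95, 13.14, 12.78 and 12.92 in PPE arrays and 12.23, 12.08 and 12.40 in sham arrays. These groups did not overlap either, and the difference of 0.71 ± 0.26 did not pass (adjusted p = 0.153).

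C1qb, the brightest of the 8 probe sets and above 98.4% of genes in mean value, ranged from 15.26 to 16.27 with a median of 15.76 in male PPE arrays, against 14.55, 15.59, 14.66, 12.84 and 13.80 in male sham arrays. Male sham 2 reached into the PPE range and male sham 4 was the lowest. C1qb rose by 1.49 ± 0.32 in males (2.81-fold, adjusted p = 0.00252). Without male sham 4, male sham 5 and male PPE 1 the difference was 0.90 (adjusted p = 0.0132), and with limma's array weights it was 0.98 (adjusted p = 0.0141). In females it was 15.73, 16.12, 15.68 and 15.76 in PPE arrays and 15.41, 15.07 and 15.53 in sham arrays, a difference of 0.49 ± 0.42 without a call (adjusted p = 0.717). C1qc ranged from 11.37 to 12.37 (median 11.72) in male PPE arrays and was 10.55, 11.25, 10.45, 9.38 and 10.09 in male sham arrays, with no overlap. It rose by 1.41 ± 0.24 (2.67-fold, adjusted p = 0.000348). Female values were 11.89, 12.50, 11.67 and 11.84 in PPE and 11.23, 11.23 and 11.62 in sham arrays, a difference of 0.62 ± 0.32 (adjusted p = 0.403).

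The change of the chains relative to each other was taken as the difference of their log2 values within each array, and tested by an exact two-sided permutation over arrays. In males the change of C1qb differed from that of C1qa by 0.02 and that of C1qc by −0.05, with exact permutation adjusted p = 0.909 and 0.826 over 8 tests. In females the corresponding differences were −0.22 and −0.10 (exact permutation adjusted p = 0.152 and 0.724, where 0.0286 is the smallest raw p that 4 and 3 arrays allow). No unequal change of the chains was detected at these sample sizes.

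C2 and Cfb encode related serine proteases that cleave C3 and C5 in the classical and the alternative convertase. The genes are neighbours on chromosome 17, at chr17:34862602-34882100 and chr17:34856374-34862514, with 87 bases between them. Cfb ranged from 13.04 to 14.77 with a median of 14.22 in male PPE arrays, against 11.23, 11.71, 12.27, 11.26 and 11.87 in male sham arrays. The male PPE values fell into 13.04, 13.37 and 13.42 in PPE 7, 2 and 1 and 14.22 to 14.77 in the other 4, all above sham. Cfb rose by 2.30 ± 0.29 in males (4.92-fold, adjusted p = 1.64e-05). Female values were 14.50, 13.63, 14.50 and 14.06 in PPE arrays and 12.46, 13.07 and 12.79 in sham arrays, again without overlap, and Cfb rose by 1.40 ± 0.38 (2.64-fold, adjusted p = 0.0428). This female call was lost when any 1 female array other than PPE 2 was left out (adjusted p = 0.0593 to 0.184), without male sham 2 (0.0533) or male PPE 4 (0.052) since all arrays share 1 variance estimate, and with each array centred on its median (adjusted p = 0.0598) or quantile normalization (adjusted p = 0.0729).

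C2 was not called in males or females. It ranged from 9.91 to 10.48 (median 10.10) in male PPE arrays and was 9.57, 9.88, 10.22, 9.56 and 9.77 in male sham arrays, and the groups overlapped. The difference was 0.37 ± 0.15 (95% interval 0.05 to 0.69, adjusted p = 0.108). In females C2 was 10.95, 10.05, 10.92 and 10.46 in PPE and 10.02, 9.89 and 10.06 in sham arrays, with PPE 2 inside the sham range, and the difference was 0.61 ± 0.20 (95% interval 0.18 to 1.03, adjusted p = 0.112). In males C2 was called in 1 of 28 alternatives, without male sham 3 (0.48, adjusted p = 0.0349). In females it was called in 2 of 28, without female PPE 2 (0.79, adjusted p = 0.0269) and with array weights (0.61, adjusted p = 0.0236). A dim second C2 probe set stayed between 4.07 and 4.81 in all 19 arrays.

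Within arrays, Cfb minus C2 averaged 3.79 ± 0.57 in male PPE and 1.87 ± 0.20 in male sham arrays (SD, n = 7 and 5). The change of Cfb exceeded that of C2 by 1.93 log2 units, with an exact permutation p of 0.00126, the smallest that 7 and 5 arrays allow, and an adjusted p of 0.0101 over the 8 tests. In females Cfb minus C2 was 3.58 ± 0.02 in PPE and 2.78 ± 0.37 in sham arrays (SD, n = 4 and 3), an excess of 0.79 without overlap of the groups. Its exact permutation p of 0.0286 was the smallest possible and did not pass after adjustment (0.114). These gene pairs were chosen after the single changes were known.

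C3ar1 and C5ar1 encode G protein-coupled receptors for the anaphylatoxins released from C3 and C5, which attract and activate myeloid cells. C3ar1 (chr6:122847140-122856157) ranged from 12.69 to 15.04 with a median of 14.05 in male PPE arrays, against 12.29, 13.20, 12.07, 10.74 and 11.82 in male sham arrays. Male PPE 1 was below male sham 2, so the groups overlapped. C3ar1 rose by 1.87 ± 0.37 in males (3.65-fold, adjusted p = 0.00118). Female values were 13.79, 14.27, 13.65 and 13.62 in PPE and 12.80, 13.00 and 13.01 in sham arrays. The female groups were apart, and the difference of 0.90 ± 0.48 did not pass (adjusted p = 0.433).

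C5ar1 (chr7:16246743-16259540), the dimmest of the 8, ranged from 9.28 to 9.83 with a median of 9.55 in male PPE arrays, against 8.18, 8.76, 8.61, 7.36 and 8.01 in male sham arrays. The male groups did not overlap, and C5ar1 rose by 1.38 ± 0.21 (2.60-fold, adjusted p = 0.000107). In females it was 8.66, 9.46, 8.62 and 8.59 in PPE and 8.46, 7.98 and 8.64 in sham arrays. Female PPE 2 was the highest, the other 3 PPE arrays lay near the highest sham array, and the difference was 0.47 ± 0.27 (adjusted p = 0.487). The changes of the receptors did not differ detectably from each other in males (C3ar1 minus C5ar1, 0.49, exact permutation adjusted p = 0.291) or in females (0.42, exact permutation adjusted p = 0.171). The female test could hardly pass after adjustment over the 8 tests, since 0.0286 is its smallest raw permutation p.

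C7 (chr15:4987750-5063773) encodes a subunit that anchors the membrane attack complex in the target membrane. It was the one measured gene of the 8 that was lower after PPE. In males C7 ranged from 12.10 to 14.86 with a median of 14.21 in PPE arrays, against 16.93, 16.76, 15.43, 14.35 and 14.98 in sham arrays. The groups overlapped through male sham 4, and each spanned more than 2 log2 units (SD 1.02 in PPE and 1.12 in sham). C7 fell by 1.91 ± 0.52 on the log2 scale in males (3.75-fold, adjusted p = 0.0136), and the call was lost without male sham 1 (adjusted p = 0.0506). In females C7 was 10.50, 11.50, 11.30 and 12.70 in PPE arrays and 13.77, 14.18 and 13.71 in sham arrays, all PPE arrays below all sham arrays. The female difference of −2.39 ± 0.68 (5.23-fold) just missed the threshold (adjusted p = 0.0566) and passed it in 9 of 28 alternatives (adjusted p = 0.00534 to 0.0491). These were array weights, the 3 male arrays left out (sham 4, sham 5 and PPE 1), the female arrays alone, dim genes left out, quantile normalization, and leaving out female PPE 4, male PPE 1, male sham 1 or male sham 4.

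Markers of several wall cell types were lower in the same comparisons as C7. The smooth muscle mean differed by −2.02 in males (6 of 6 called lower) and −1.3 in females (5 of 6). The fibroblast mean differed by −0.58 and −0.64, and the endothelial mean by −0.34 (3 of 6 called lower) and −0.18 (0 called). The fibroblast mean over the 5 measured of 6 genes was 13.91 to 14.23 in male PPE and 14.03 to 14.90 in male sham arrays (4 of 5 called lower). In females it was 14.26 to 14.56 in PPE and 14.98 to 15.06 in sham arrays (1 of 5 called lower). The mesothelial marker mean stayed at 5.11 to 5.96 over all 19 arrays. The part of these cells in the change of C7 was not tested.

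**Figure D2:**
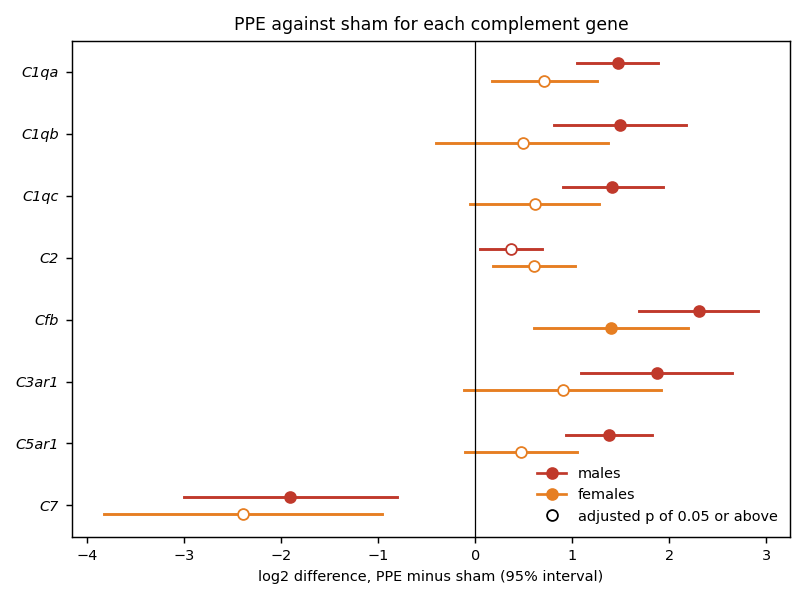
Log2 difference PPE minus sham (x axis) of each complement gene (y axis) in males and females, with 95% intervals from the fit over all 19 arrays, filled where the adjusted p was below 0.05. Cfb lies farthest to the right in both sexes (2.30 and 1.40), C2 at 0.37 in males, and C7 on the left in both (−1.91 and −2.39).

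The response to PPE was compared between the sexes by the difference of the log2 differences, male minus female. It was positive for 7 of the 8 genes, and in limma 0 of 8 passed after adjustment, while 2 had an unadjusted p under 0.05 (C1qa and C5ar1). Over all genes 0.541% passed. C5ar1 differed by 0.91 ± 0.35 (95% interval 0.18 to 1.63, adjusted p = 0.348) and C1qa by 0.75 ± 0.32 (0.07 to 1.44, adjusted p = 0.432). C2 had the one negative difference, at −0.23 (−0.76 to 0.30). C7 differed by 0.48 (−1.32 to 2.28). Since C7 fell, its positive value is a smaller fall in males (−1.91) than in females (−2.39). A difference of the responses was thus tested and not detected in any of the 8 genes, and the larger number of calls in males does not show one. Male array medians (5.61 to 5.85) also lay below all female ones (6.17 to 6.31). Sex and array scaling therefore cannot be told apart in this comparison.

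Macrophage markers rose beside the C1q and receptor genes. Of 8 markers 6 were called higher in males, and their mean was 13.19 to 13.97 in male PPE and 11.37 to 12.91 in male sham arrays, a difference of 1.43. In females 1 of 8 was called higher, and the mean was 13.23 to 14 in PPE and 12.83 to 13.02 in sham arrays, a difference of 0.63. Neutrophil markers differed by 2.03 in males (5 of 6 called higher) and by 2.12 in females (4 of 6). T cell markers differed by 1.5 in males and 1.47 in females (all 5 measured called higher in each sex). The part of these cells in the changes was not tested.

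Within groups, mice that were high in macrophage markers were high in C1q. Deviations from the group means over the 19 arrays were correlated with those of the macrophage marker mean, with 8 relations and permutation within groups. Pearson's r was 0.93 for C1qa, 0.94 for C1qb and 0.91 for C1qc (Spearman's rho 0.94, 0.95 and 0.84, permutation adjusted p of r at most 6e-05). It was 0.88 for both C3ar1 and C5ar1 (rho 0.88 and 0.86, permutation adjusted p of r 2.67e-05 and 6.4e-05). For C2 (r = 0.09, rho = 0.18, permutation adjusted p = 0.765) and Cfb (r = 0.32, rho = 0.33, permutation adjusted p = 0.213) no relation was detected, and C7 stood between (r = 0.54, rho = 0.47, permutation adjusted p = 0.0694). Without the 2 arrays farthest in the marker mean, r was 0.78 to 0.90 for the 5 C1q and receptor genes, 0.31 for Cfb, −0.09 for C2 and 0.35 for C7. In the 12 male and the 7 female arrays taken apart, r was 0.90 to 0.98 and 0.77 to 0.95 for those 5 genes. For the others the sexes had opposite signs: 0.51 in males and −0.61 in females for Cfb, 0.41 and −0.64 for C2, and 0.72 and −0.27 for C7.

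**Figure D3:**
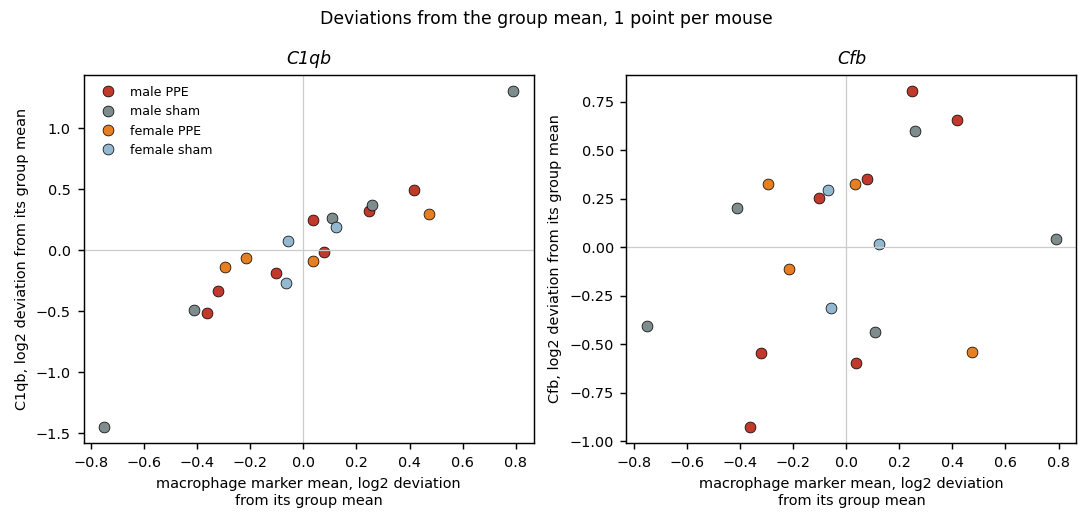
Deviation of C1qb and of Cfb from the group mean (y axes, log2) against that of the macrophage marker mean (x axes, log2), 1 point per mouse, coloured by group. Over the 19 arrays together C1qb follows the markers (r = 0.94), with male sham 4 lowest and male sham 2 highest, and Cfb scatters (r = 0.32).

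The same measure was taken for the 28 pairs of the 8 genes. Among the 3 C1q chains and the 2 receptor genes r lay between 0.68 and 0.92 (permutation adjusted p of r at most 0.00386). C2 and Cfb were related to each other (r = 0.68, rho = 0.68, permutation adjusted p of r = 0.00613, r = 0.64 without the 2 farthest arrays). That relation was 0.70 in the male and 0.79 in the female arrays. Between C2 and the C1q and receptor genes no relation was detected (r between −0.04 and 0.22, permutation adjusted p of r at least 0.502). The sexes had opposite signs there, with r of 0.25 to 0.44 in males and −0.7 to −0.5 in females. Cfb had r of 0.09 to 0.52 with those genes (permutation adjusted p of r at least 0.0847). That was 0.38 to 0.67 in males and −0.81 to −0.49 in females. For C7, r was 0.62 with C1qa, 0.62 with C1qb and 0.67 with C3ar1 over all arrays (permutation adjusted p of r 0.0398, 0.0297 and 0.0222), and Spearman's rho did not pass (0.48, 0.56 and 0.54, permutation adjusted p 0.148, 0.0904 and 0.0988). These relations did not hold within females, where r was −0.17 to −0.1, against 0.71 to 0.78 in males.

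**Figure D4:**
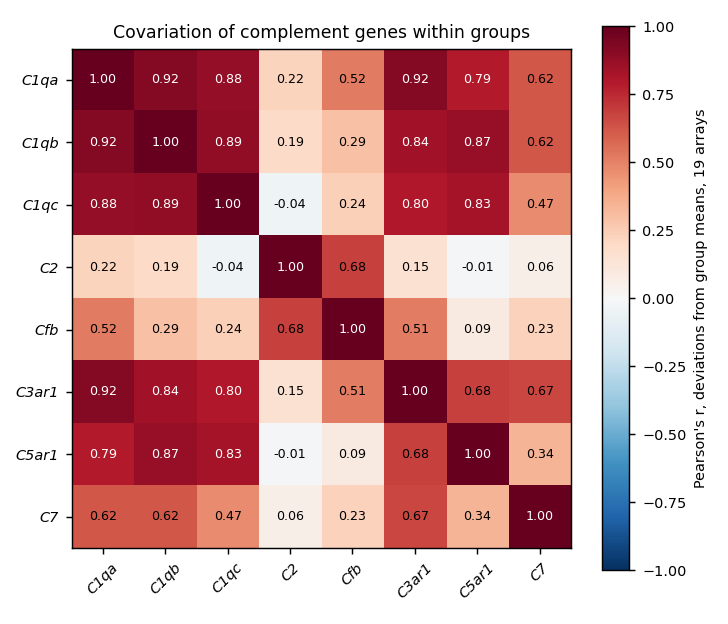
Pearson's r between the deviations of each pair of complement genes from their group means over the 19 arrays, as colour and number. The C1q chains and both receptor genes form a block, and C2 and Cfb pair with each other at 0.68.

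Genes with the most similar deviations were looked up among 10505 named genes above the median level, as a description over the same 19 arrays. For C1qb and for C5ar1 the closest was Csf1r, which encodes the receptor of macrophage colony-stimulating factor (r = 0.951 and 0.924). Csf1r is itself in the macrophage marker mean used above, so this is not a separate observation. Next came Man2b1 (0.931) and Vsir (0.93) for C1qb, and B4galt6 (0.917) and Ctsa (0.912) for C5ar1. For C1qa the closest were Pld4 (0.979), Clec4a3 (0.939) and Itgam (0.939), and for C1qc Apobec1 (0.907), Tm6sf1 (0.907) and Ly86 (0.894). C3ar1 was closest to Lpxn (0.965). Cfb was closest to Ms4a4c (0.936), the monocyte surface gene Ly6c2 (0.907) and the monocyte chemokine gene Ccl7 (0.891). C2 was closest to Nt5e (0.859) and Ptgs2, the inducible cyclooxygenase gene (0.828). C7 was closest to Plpp3 (0.911), the ferritin receptor gene Scara5 (0.902) and Pkia (0.897). All 3 of these also fell in males, by 1.06, 1.25 and 0.66 on the log2 scale. Their female differences were −0.77, −0.99 and −0.66, with Scara5 and Pkia called in limma (adjusted p = 0.0345 and 0.0436) and Plpp3 not (0.132).

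Of 42 other complement genes 38 were measured, and the remaining 4 were not analysed here. In males 7 were called higher and 2 lower, and 29 were not called, with a median log2 difference of 0.04. The called share was 23.7%, near the 19.7% of all genes. In females the share was 5.26%, near the 4.22% of all genes, with 2 called higher and 0 lower (36 not called, 10 of the 38 with an unadjusted p under 0.05 in limma, median 0.02).

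Properdin (Cfp), which stabilises the alternative convertase and is made by myeloid cells, rose beside Cfb in both sexes. Cfp ranged from 11.51 to 12.36 (median 12.13) in male PPE arrays and was 9.91, 10.72, 10.70, 9.48 and 9.39 in male sham arrays, without overlap (1.98 ± 0.23, 3.94-fold, adjusted p = 8.46e-06). In females it was 12.10, 12.69, 12.09 and 11.69 in PPE and 10.81, 10.97 and 11.02 in sham arrays (1.21 ± 0.30, 2.31-fold, adjusted p = 0.0298), again without overlap. The female call of Cfp was lost when any 1 female array other than PPE 4 was left out (adjusted p = 0.0678 to 0.12) and with median centring (0.052).

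Of the 6 other receptor genes 5 were called higher in males, where 9.67% of all genes were. In females 1 was, against 2.77% of all genes. Itgam and Itgax encode the alpha chains of complement receptors that bind fragments of C3, and Itgb2 encodes their shared beta chain. They rose by 1.91, 0.89 and 1.79 in males (adjusted p = 0.000103, 0.000993 and 7.12e-05). The male groups overlapped in Itgax (10.09 to 10.57 in PPE and 8.9 to 10.18 in sham arrays). In females Itgb2 rose by 1.28 (adjusted p = 0.0409), while Itgam (1.11) and Itgax (0.73) did not pass. The female call of Itgb2 was lost without any 1 female array other than PPE 4 (adjusted p = 0.0708 to 0.2), without male PPE 2 (0.0513), and with median centring (0.0756) or quantile normalization (0.0891). C5ar2, a receptor related to C5ar1, rose by 0.45 ± 0.08 in males (7.20 to 7.63 in PPE and 6.73 to 7.03 in sham arrays) and stood at 0.22 in females. Vsig4, a macrophage receptor for C3 fragments, rose by 0.51 in males at a low level (5.11 to 5.73 in PPE and 4.74 to 4.96 in sham arrays). Cr2, which marks B cells and follicular dendritic cells, was not called in males (−0.42) or females (1.16, adjusted p = 0.0965). It was 6.97, 8.51, 8.4 and 7.08 in female PPE and 6.4, 6.32 and 7.02 in female sham arrays, and B cell markers there differed by 1.13 (2 of 4 measured called higher).

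No regulator was called higher. Of 12 measured, 2 were called lower in males, where 9.98% of all genes were, and 0 in females (2 of the 12 with an unadjusted p under 0.05 in females in limma). Cd59a and Cd59b, the mouse genes of the inhibitor that blocks the last step of membrane attack complex assembly, fell in males by 0.93 ± 0.16 and 0.65 ± 0.12 on the log2 scale (adjusted p = 0.000419 and 0.000697). Cd59a was 9.46 to 9.96 in male PPE and 10.88, 10.59, 10.08, 11.06 and 10.33 in male sham arrays. In females Cd59a was 10.56, 11.00, 10.63 and 11.22 in PPE and 11.30, 11.93 and 11.51 in sham arrays (−0.73, adjusted p = 0.0648), and Cd59b was at −0.09. The decay accelerator gene Cd55 was not called in males (−0.26) or females (0.10), nor was Cr1l, which encodes the rodent C3 regulator Crry (0.09 and −0.14).

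Of 13 classical and lectin genes measured beside C1q and C2, 1 was called in males (7.69%, against 19.7% of all genes) and 0 in females. An unadjusted p under 0.05 in limma was found for 6 of the 13 in males and 3 in females. The called gene was the ficolin gene Fcnb (0.28, at 4.91 to 5.30 in male PPE and 4.73 to 4.93 in male sham arrays). Its mean value was below the median of genes. C4b stood at 0.74 ± 0.29 in males (adjusted p = 0.0912) and 0.84 ± 0.38 in females (adjusted p = 0.303). Its near-identical copy C4a stood at 0.53 and 0.58, and array probes may not separate the 2. None of the other terminal genes was called in limma (Hc, C6, C8a, C8b, C8g and C9, 0 of 6 in each sex and 0 with an unadjusted p under 0.05). Hc, the mouse gene of C5, lay at 4.92 to 5.08 in male PPE and 4.97 to 5.25 in male sham arrays. Group means of Hc, C8a, C8b, C8g and C9 ran from 3.95 to 5.9, below the median of gene means (6.46). At such levels a missing call says little about change. Hepatocyte markers were likewise low, with a mean of 4.77 to 5.64 over all 19 arrays.

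**Figure D5:**
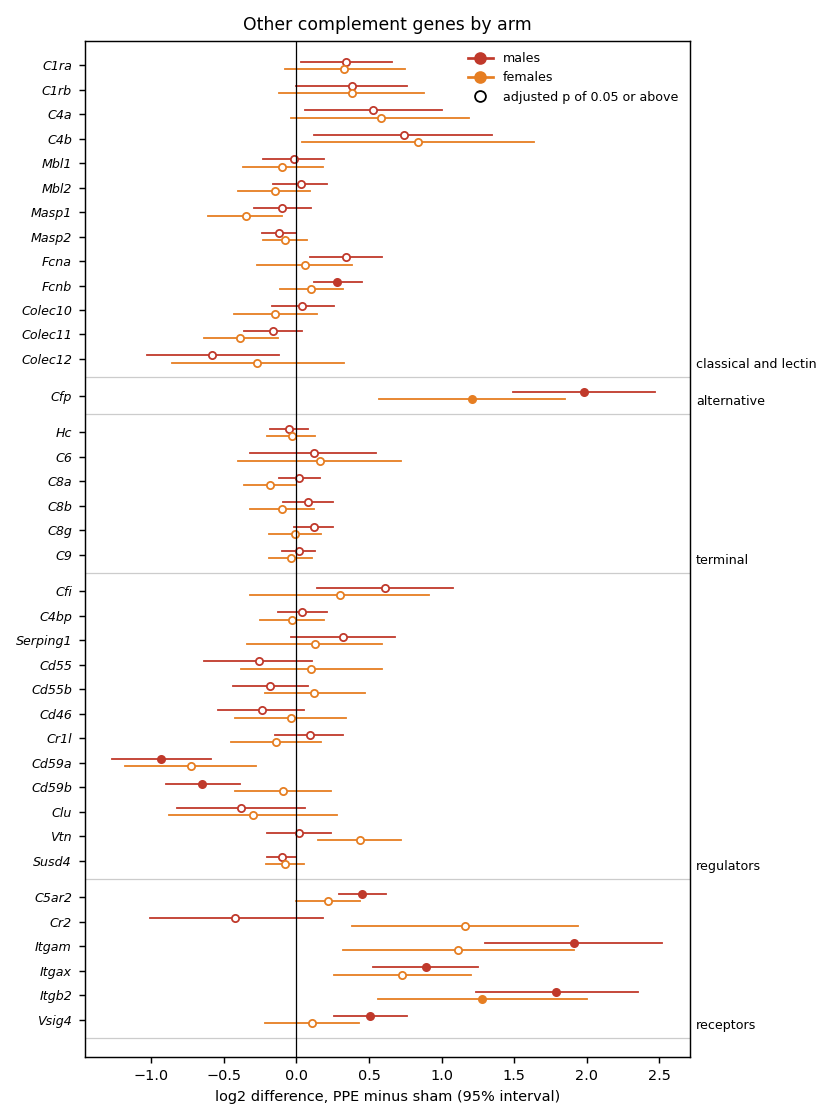
Log2 difference PPE minus sham (x axis) of 38 other complement genes (y axis), grouped by arm, in males and females with 95% intervals, filled where the adjusted p was below 0.05. Cfp and Itgb2 are filled in both sexes, and Cd59a and Cd59b lie left of 0 in males (−0.93 and −0.65).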

How the data were processed

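RNA of 1 infrarenal aorta per mouse was hybridised to each of 19 arrays, per the labels. The log2 values were deposited by the authors, who used the Transcriptome Analysis Console on mm10, per the submitters' processing notes. For its version, the background correction and the summarisation, the sources used here give nothing. Of 65956 probe sets 30604 had exactly 1 symbol, and the brightest per gene left 30142 genes, with symbols and coordinates from RefSeq GRCm38.p6. A model with 4 group means used all 19 arrays (limma 3.58.1, lmFit and eBayes, R 4.3.3), with no further normalization, and calls were made at an adjusted p below 0.05. Intervals are 95% intervals of that fit. Correlations used 100000 permutations within groups, for which 1e-05 is the smallest raw p. The number of arrays limits the precision. The members, lists and alternatives were chosen with earlier results of these data known. All measured members were named, and of the other complement genes those called and a fixed set (Cfp, Cd55, Cr1l, Hc, C4b, C5ar2); Cr2, C4a and C6 to C9 were added after their values were seen. The 3 genes most like each member were ranked among RefSeq-named genes, without predicted genes, small RNAs and receptor segments, above the median of gene means (6.46), and not all are printed. The code of the fit was checked on simulated data with independent noise, without an offset between the sexes and without odd arrays. That check does not bear on how stable the calls are. Marker means used the measured genes of each list; endothelial markers (3 of 6 called lower in males, 0 in females, where 3 had an unadjusted p under 0.05 in limma), adipocyte (0 of 8 in each sex, 2 and 0 at that level), hepatocyte (0 of 4, 0 and 1), mesothelial (0 of 5, 0 and 0), B cell (males 0 of 4, 0) and red blood cell lists (1 gene measured, not called, 1 and 0) were also counted, in males and females in that order. A gene and a promoter motif of the lists are not reported here.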

Additional observations from a re-analysis of the deposited data

Results flagged for a closer look

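C5ar1 was 9.46 in female PPE 2, against 8.59 to 8.66 in the other 3 female PPE arrays, a gap that is large for a group of 4. The same array had the highest macrophage marker mean of the female arrays (14 on the log2 scale, against 13.23 to 13.56 in the other female PPE arrays), and the part of those cells was not tested. It was 1 of 63 groups of values examined, and chance alone marks about 1 group in 20.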

How the results depend on the processing

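No member changed sign in any of the 28 alternatives run per member and sex. In males 7 members were called, and 6 to 8 without 1 array. In females the single call, that of Cfb, was lost in 11 of 28 alternatives. With quantile normalization the count stayed at 1, but the gene called was C7. Members called in females numbered 0 with median centring and with the replicate block, 2 with dim genes left out, 3 without male sham 4, male sham 5 and male PPE 1, 4 with array weights and 4 with only the female arrays, and 0 to 2 without 1 array (0 without female sham 1, 2 or 3, female PPE 1 or 3, male sham 2 or male PPE 4; 2 without female PPE 2, male sham 1, male sham 4 or male PPE 1). Other complement genes called in males were 15 with array weights and 14 without those 3 male arrays, against 9. In females they were 0 with median centring, 9 with array weights, 5 with only the female arrays, 1 with the replicate block and 7 without the 3 male arrays, against 2, and 0 to 5 without 1 array. All genes called in females were 3951, 1970, 639 and 2454 with array weights, only the female arrays, the replicate block and without the 3 male arrays, against 1273, and 368 to 1613 without 1 array (fewest without female sham 2). In males the replicate block gave 3535 genes against 5923. C1qa was called in females with array weights (adjusted p = 0.0148), only the female arrays (0.0123) and without the 3 male arrays (0.047), and C3ar1 with only the female arrays (0.0196). The replicate block also ended the calls of Cfb (adjusted p = 0.0641), Cfp (0.0513) and Itgb2 (0.0859) in females and of C7 (0.115), Fcnb (0.0833) and Vsig4 (0.0534) in males. Same-numbered arrays had deviations correlated at −0.32 to 0.24. The labels do not say whether the numbers pair mice, and these correlations cannot settle it. The cause of these shifts was not tested. Male arrays enter the female test through the shared variance, and groups of 3 and 4 arrays limit what the female comparison can detect.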

Other observations

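Male PPE 7 was the lowest of the male PPE arrays in Cfb (13.04), C1qa (11.81), C1qb (15.26) and C1qc (11.37).

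C7 of male PPE mice had an SD of 1.02, the highest of the 8 genes in that group, and male PPE 1 (12.10) and male PPE 7 (12.82) were lowest.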
